A study of Mus musculus with 6 samples.

Results

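The genes described here are 10 members of the tumour necrosis factor (TNF) family that lymphocytes use to signal to each other. They comprise 6 ligand genes (Tnf, Lta, Ltb, Tnfsf9, Tnfsf4 and Tnfsf8) and 4 receptor genes (Tnfrsf9, Tnfrsf4, Tnfrsf1a and Tnfrsf1b), out of 19057 genes that the array annotation names. The members were chosen by gene symbol, and where the array carries several probes for a gene the brightest on average over the 6 arrays was read (18 probes in all). RNA came from B lymphocytes purified from spleens of C57BL/6 mice, an inbred strain, at 8 weeks of age, and was hybridised to 1-colour Illumina bead arrays. There were 3 untreated samples and 3 samples given goat F(ab')2 anti-IgM, antibody fragments that cross-link the B cell antigen receptor, at 2.5 µg/ml for 3 h. The protocols, which all 6 samples share, list IL-4 (5 ng/ml) and CD40L (200 ng/ml), which mimic T cell help, without tying them to a sample. Whether untreated cells received them is therefore not known here. If the anti-IgM samples alone did, the action of these agents and that of the antibody cannot be told apart. The labels also give no time in culture for the untreated samples. If these were not cultured alike, culture and the antibody cannot be told apart either. Nothing in the labels ties a replicate to a mouse or culture, so p-values cover only the spread among these arrays, which may be partly technical.

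TNF family ligands are mostly membrane proteins that act as trimers, and each trimer clusters its receptors on the target cell. Lymphotoxin alpha is secreted as a trimer of its own that binds the TNF receptors, or is held at the membrane together with lymphotoxin beta, and this mixed form acts on the lymphotoxin beta receptor of stromal cells to maintain the B cell areas of the spleen. TNF receptor 1 carries a death domain, whereas TNF receptor 2, OX40 and 4-1BB lack it and signal through TRAF adaptors towards NF-kB and cell survival. OX40 and 4-1BB are known best as costimulatory receptors of T cells, and their ligands are carried by activated antigen-presenting cells, B cells among them.

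Ltb, Tnf and Lta lie side by side on chromosome 17, so the 250 bases before the start of each are shown first, followed by those of Tnfrsf4 and Tnfrsf1b, the receptor genes with the largest changes. The sequences are from RefSeq on GRCm38.p6, written 5′ to 3′ in the direction of transcription. Capitals mark matches on either strand to an NF-kB-type motif (GGG and CC with 5 bases of any kind between them) or to the core of NFAT-type motifs (GGAAA, or TTTCC where the match is on the other strand).
Ltb (chr17:35194257-35194506, plus strand): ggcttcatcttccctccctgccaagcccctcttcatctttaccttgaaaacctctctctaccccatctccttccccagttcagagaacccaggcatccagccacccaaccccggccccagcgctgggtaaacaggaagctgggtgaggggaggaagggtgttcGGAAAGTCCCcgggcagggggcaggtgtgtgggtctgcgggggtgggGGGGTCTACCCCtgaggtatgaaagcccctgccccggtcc
Tnf (chr17:35202008-35202257, minus strand): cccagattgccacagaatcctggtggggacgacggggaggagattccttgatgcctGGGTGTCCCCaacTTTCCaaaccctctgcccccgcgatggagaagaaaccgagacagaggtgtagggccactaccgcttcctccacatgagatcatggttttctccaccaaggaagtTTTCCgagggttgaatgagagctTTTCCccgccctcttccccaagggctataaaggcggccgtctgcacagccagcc
Lta (chr17:35205352-35205601, minus strand): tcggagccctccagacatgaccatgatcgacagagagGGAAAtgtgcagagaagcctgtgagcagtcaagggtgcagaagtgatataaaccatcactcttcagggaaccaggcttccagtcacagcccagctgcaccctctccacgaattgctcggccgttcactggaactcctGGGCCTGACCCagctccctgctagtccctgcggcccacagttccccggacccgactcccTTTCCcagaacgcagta
Tnfrsf4 (chr4:156013445-156013694, plus strand): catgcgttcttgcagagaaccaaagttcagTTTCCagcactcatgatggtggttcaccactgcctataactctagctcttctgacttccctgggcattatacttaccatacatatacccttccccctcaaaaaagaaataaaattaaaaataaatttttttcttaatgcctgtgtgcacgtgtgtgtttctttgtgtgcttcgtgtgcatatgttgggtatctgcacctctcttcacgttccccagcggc
Tnfrsf1b (chr4:145246871-145247120, minus strand): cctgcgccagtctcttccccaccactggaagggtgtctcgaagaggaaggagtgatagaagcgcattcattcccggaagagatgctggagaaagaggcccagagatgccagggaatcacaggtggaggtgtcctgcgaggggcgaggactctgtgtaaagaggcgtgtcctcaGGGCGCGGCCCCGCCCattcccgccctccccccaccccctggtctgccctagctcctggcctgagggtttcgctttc
Within the Ltb window the core GGAAA and an NF-kB-type match overlap, and the NF-kB-type matches nearer the start overlap one another, as they do in Lta and Tnfrsf1b.

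Before the results, the arrays themselves were compared. The median normalized intensity lay between 72.81 and 72.84 on every array, which is 6.19 on the log2 scale, and the number of arrays limits the precision (median standard error, SE, of a log2 change 0.15). B cell markers ran from a mean log2 intensity of 7.04 for Cr2 and 9.68 for Ms4a1 to 14.57 for Cd79b, a signalling chain of the antigen receptor, in untreated samples. With anti-IgM 6 of 7 measured B cell markers fell, where 23.9% of all genes tested fell in the test described below. Replicate 1 of both groups stood apart from replicates 2 and 3 on the component that held 8.52% of the variance. It also read 52.6 for Xist, a transcript of female cells, against 791 to 2031 on the other arrays. The Y-linked gene Eif2s3y read 1043 (untreated) and 516 (anti-IgM) in replicate 1, against 48.6 to 56.4 on the other arrays. By these genes replicate 1 of both groups was male and the other samples female, which the labels do not state. Replicate 1 was also lowest for the macrophage marker Lyz2 (844 against 3516.5 and 4926 untreated, 859 against 1275 and 1937 with anti-IgM). The natural killer cell marker Prf1 was likewise lowest there (1446 against 5039 and 5330, 1686 against 2359 and 3995). The T cell markers Cd3d and Thy1 were instead highest in replicate 1, and other markers varied. The parts of sex and of other cells were not tested. Values without both replicate 1 arrays are therefore given beside each member tested. A transcript that is lower in such bulk samples may reflect fewer cells of a type or less RNA per cell, which cannot be told apart.

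In anti-IgM samples Tnf, Lta and the receptor genes Tnfrsf4, Tnfrsf1b and Tnfrsf9 were higher, and Ltb was lower. Tnf rose 7.18-fold, Tnfrsf4 3.76-fold, Tnfrsf1b 3.40-fold and Lta 2.59-fold, whereas Ltb was 8.30-fold lower. The ligand genes Tnfsf9 and Tnfsf8 did not pass the test, and Tnfsf4 and Tnfrsf1a stayed under the median of every array and were not tested. A gene was tested when its probe exceeded the array median on at least 3 of 6 arrays. Of the 8 members tested, 5 were higher and 1 lower at an adjusted p under 0.05 (limma, Benjamini-Hochberg over 11843 genes). The background was high, since 47.1% of all genes tested were called in either direction, 23.2% as higher and 23.9% as lower. Among the same 8 members the groups did not overlap in 6, where they did not overlap in 54.8% of all genes tested. Without both replicate 1 arrays 6 members and 48.7% of all genes were called, and with the replicate number as a block 6 members and 54.0% of all genes. Calls of further probes of a gene, below, come from a fit over all probes, of which 42.2% were called.

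**Figure D1:**
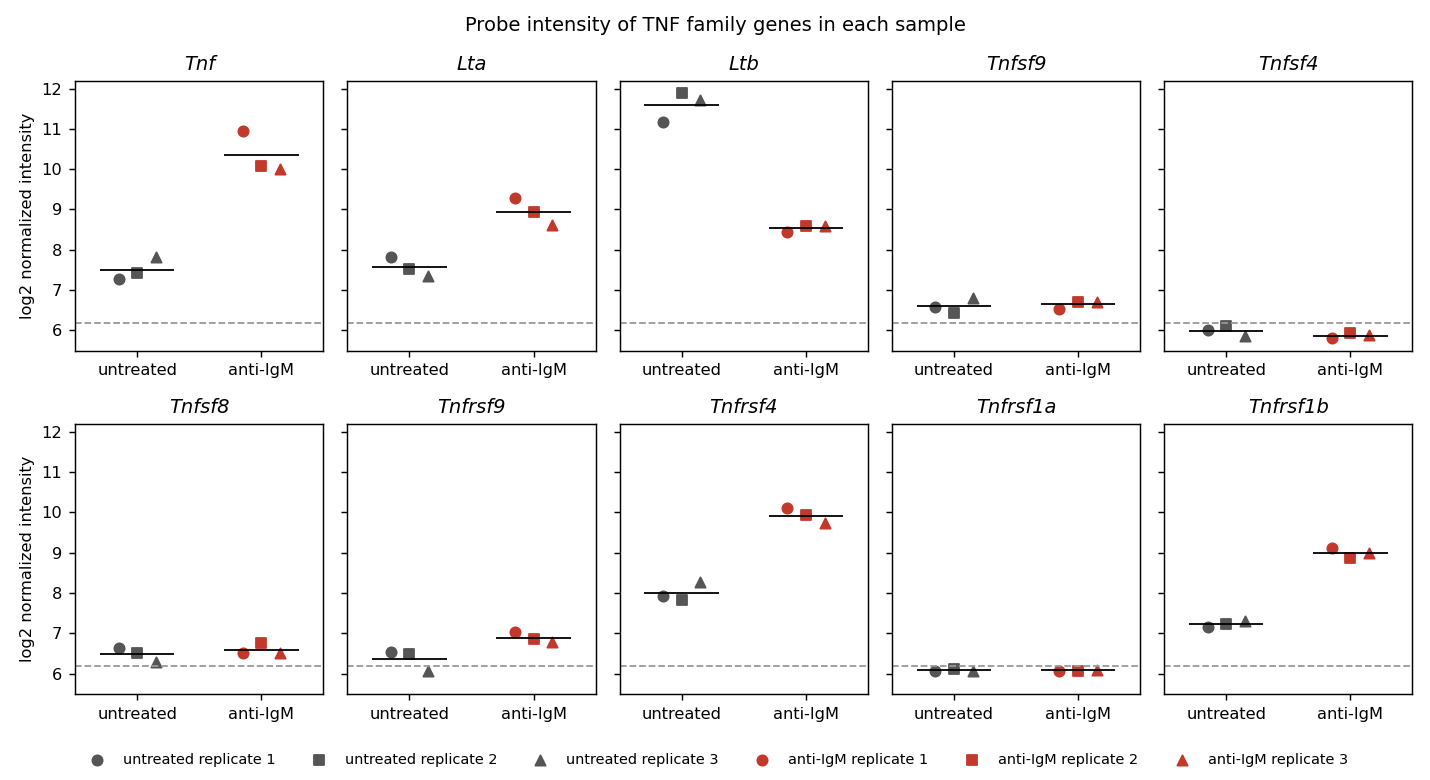
Log2 normalized intensity of the chosen probe of each member in each sample, by group. Marker shapes give the replicate number, bars the group mean and the dashed line the array median of 6.19. Tnf, Lta, Tnfrsf4 and Tnfrsf1b lie higher in all 3 anti-IgM samples and Ltb lower, while Tnfsf4 and Tnfrsf1a stay under the dashed line.

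Tnf encodes the inflammatory cytokine that names the family. Its normalized intensity was 154, 172 and 225 in untreated replicates 1, 2 and 3, and 1979, 1075 and 1035 in anti-IgM replicates 1, 2 and 3. The lowest anti-IgM sample was thus well above the highest untreated one, and anti-IgM replicate 1 was the highest of all. The log2 change was 2.84 ± 0.24 (SE, n = 3 per group; 95% interval 2.30 to 3.39; adjusted p = 4.28e-06, limma), the 41st largest rise among the genes tested. Between samples of the same number it was 3.69, 2.64 and 2.20, and without both replicate 1 arrays 2.42 ± 0.15. The other probe for Tnf gave 2.93 ± 0.26 (adjusted p = 1.17e-05 over all probes, limma).

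Lta encodes lymphotoxin alpha. Its intensity was 227, 182 and 164 in untreated samples and 625, 486 and 390.4 in anti-IgM samples. Here too all 3 treated samples lay above the untreated ones. The log2 change was 1.38 ± 0.20 (95% interval 0.94 to 1.81; adjusted p = 0.000181, limma), 1.35 ± 0.23 on its other probe and 1.33 ± 0.17 without both replicate 1 arrays.

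Ltb encodes lymphotoxin beta, the membrane anchor of the mixed lymphotoxin trimer. Its intensity was 2323, 3774 and 3358.5 in untreated samples and 346, 387 and 384 in anti-IgM samples. Every untreated sample was several times brighter than every treated sample, and the treated samples lay close together (SD 0.09 on the log2 scale, against 0.37 in untreated samples). The log2 change was −3.05 ± 0.17 (95% interval −3.42 to −2.68; adjusted p = 1.98e-07, limma), the 48th largest fall among the genes tested. Without both replicate 1 arrays it was −3.21 ± 0.11. The array carries 1 probe for Ltb, so no second probe tests it.

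The subunit genes Lta and Ltb thus changed in opposite directions. The log2 intensity of the Lta probe minus that of the Ltb probe ran from −4.37 to −3.35 on untreated arrays and from 0.02 to 0.85 on anti-IgM arrays, a shift of 4.43 ± 0.42 (SE), or 4.54 without both replicate 1 arrays. The Tnf minus Lta difference also separated the groups, at −0.57 to 0.46 untreated and 1.15 to 1.66 with anti-IgM, so the rise of Tnf was larger by 1.47 ± 0.33, or 1.09 without those arrays. Tnf rose more than its receptor gene Tnfrsf1b by 1.08 ± 0.27, or 0.76 without them. Each of these 3 pairs was picked with the values known and separated the groups. An exact two-sided permutation test then gives p = 0.10, before and after adjustment over the pairs, whatever the size of the shift. That is the smallest p that 3 against 3 samples allow, so the test cannot decide and the shifts only describe these probes on these arrays.

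Among the receptor genes, Tnfrsf1b encodes TNF receptor 2. Its intensity was 141, 149 and 159 in untreated samples and 557, 468 and 506 in anti-IgM samples. Samples of a group differed little beside the gap between groups. The log2 change was 1.77 ± 0.14 (95% interval 1.45 to 2.08; adjusted p = 2.61e-06, limma) and 1.66 ± 0.16 without both replicate 1 arrays. The other probes for Tnfrsf1b gave 1.49 ± 0.16 (adjusted p = 3.94e-05) and 1.12 ± 0.23 (adjusted p = 0.00272, limma over all probes). Tnfrsf1a, which encodes TNF receptor 1, read 66.5 to 69.0 untreated and 67.0 to 68.2 with anti-IgM. All 3 of its probes were under the array median on every array, so no change was measurable for this receptor and its level has no fold.

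Tnfrsf4 encodes OX40. Its intensity was 243, 227 and 311 in untreated samples and 1100.1, 977 and 848 in anti-IgM samples. No untreated sample came near a treated one. The log2 change was 1.91 ± 0.16 (95% interval 1.56 to 2.26; adjusted p = 3.18e-06, limma) and 1.78 ± 0.16 without both replicate 1 arrays, from the only probe for the gene. Tnfsf4, the gene of the OX40 ligand, read 57.9 to 69.2 untreated and 55.6 to 61.4 with anti-IgM, under the array median throughout.

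Tnfrsf9 encodes 4-1BB. Its intensity was 93.2, 89.3 and 66.5 in untreated samples and 130.4, 116 and 110.3 in anti-IgM samples. The groups did not overlap, but all of these values lie close to the array median of 72.8, where folds are compressed. The log2 change was 0.53 ± 0.16 (95% interval 0.17 to 0.89; adjusted p = 0.0211, limma) and 0.55 ± 0.19 without both replicate 1 arrays. The call was lost without untreated replicate 3 (adjusted p = 0.0828) or anti-IgM replicate 1 (adjusted p = 0.0602). The other probes for Tnfrsf9 did not pass (0.30 ± 0.15, adjusted p = 0.139, and 0.14 ± 0.17, adjusted p = 0.575, limma over all probes), so the rise rests on 1 of 3 probes. Tnfsf9, the gene of the 4-1BB ligand, read 95.3, 85.9 and 112 untreated and 92.6, 104 and 105 with anti-IgM. These groups overlapped, with a log2 change of 0.05 ± 0.15 (95% interval −0.28 to 0.37; adjusted p = 0.84, limma) and 0.09 ± 0.19 without both replicate 1 arrays.

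Tnfsf8, the gene of the CD30 ligand, read 98.6, 91.7 and 78.0 untreated and 91.4, 108 and 91.0 with anti-IgM. The samples of the groups interleaved, with a log2 change of 0.12 ± 0.15 (95% interval −0.21 to 0.44; adjusted p = 0.57, limma) and 0.23 ± 0.19 without both replicate 1 arrays. Tnfrsf8, which encodes CD30 itself, was under the array median on every array. The intervals of Tnfsf9 and Tnfsf8 leave room for a change of up to 0.37 and 0.44 on the log2 scale, and both probes were dim, so larger changes of the transcripts can be hidden.

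**Figure D2:**
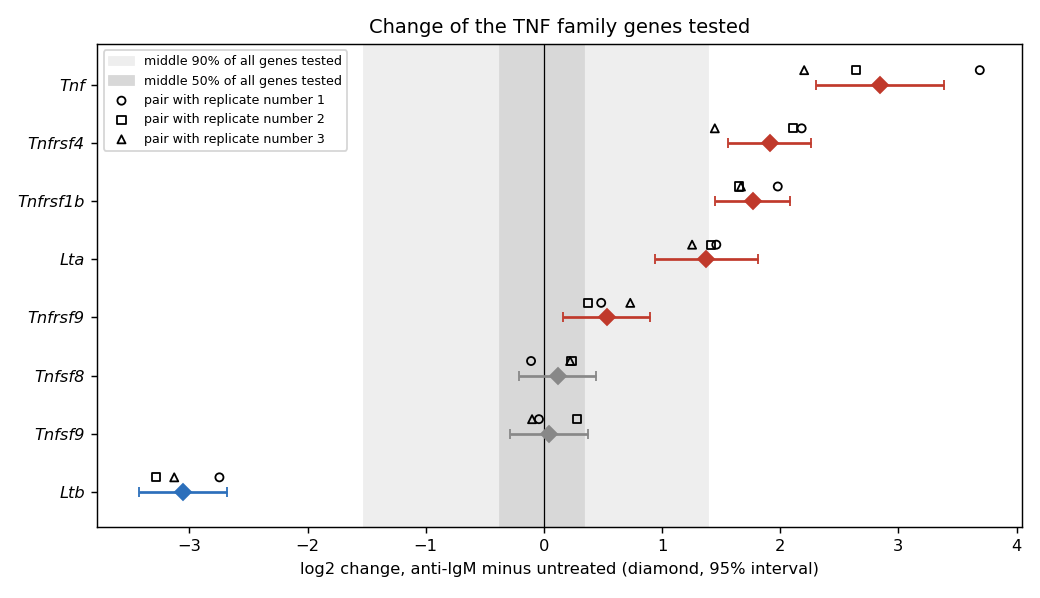
Log2 change (anti-IgM minus untreated) of the 8 members tested. Diamonds give the change with its 95% interval, open symbols the difference between samples of the same replicate number, and grey bands the middle 50% and 90% of all genes tested (the latter −1.52 to 1.39). Tnf, Tnfrsf4 and Tnfrsf1b lie above the wider band, Ltb below it and Lta at its upper edge.

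Some other cells of the spleen make TNF and lymphotoxin, so markers of those cells were read in the same samples. For comparison with the counts that follow, 47.1% of all genes tested were called, 23.2% as higher and 23.9% as lower. None of 8 T cell markers tested rose and 3 fell (Cd8b1, Cd2 and Cd28). Cd8a was never above the array median, and Cd3e, a chain of the T cell receptor complex, was near it (mean log2 intensity 6.33 untreated, 6.04 with anti-IgM). The 3 that fell were brighter, at 11.52 for Cd2, 10.82 for Cd8b1 and 8.55 for Cd28 untreated, and 8.66, 10.24 and 7.20 with anti-IgM. The summed intensity of 9 T cell markers was 4954 to 6127 untreated and 2149 to 2333 with anti-IgM. Most of it came from Cd2 (2064 to 3498 untreated, 337 to 455 with anti-IgM) and Cd8b1 (1671 to 1895 and 1119 to 1281). Cd3e, Cd3d, Cd3g and Cd4 were dim and did not pass the test, with a change of 0.21 ± 0.23 for Cd3d. The sum therefore follows a few bright genes and gives no share of T cells. Of 6 natural killer cell markers tested, Nkg7 rose (1.20 ± 0.21) and Klrd1 fell (−0.78 ± 0.15). Ncr1, which defines these cells, was never above the array median, whereas Prf1, the gene of the pore-forming protein perforin, was bright in both groups (11.73 untreated, 11.30 with anti-IgM) and did not pass the test. The summed intensity of 7 markers was 2027.5 to 5933 untreated and 2426 to 4729 with anti-IgM. Macrophage and monocyte markers had 1 fall (Adgre1) and no rise among 7 tested, with Lyz2 at 11.26 untreated and 10.33 with anti-IgM, and sums over 9 markers of 1752 to 6047 and 1652 to 2765. Dendritic cell markers went both ways, with Zbtb46 and Bst2 higher and Xcr1 and Cst3 lower among 5 tested, Itgax never above the array median, Cst3 at 12.32 and 11.10, and sums over 8 markers of 4549 to 7057 and 2862 to 4020. Neutrophil markers had 2 falls (S100a8 and S100a9) and no rise among 6, with sums of 947 to 1736 and 780.02 to 1028. The part of these cells in the changes of Tnf, Lta and Ltb was not tested.

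Next to the cluster on chromosome 17, changes were smaller and of both signs. In the order of protein-coding genes in the RefSeq table, the 5 genes on either side of Ltb, Tnf and Lta were read after the member values were seen. Of these 10, 1 rose and 4 fell, with changes between −0.82 and 0.60. The total called is near the share over all genes tested, of which 47.1% were called. Of all genes 23.2% were called higher and 23.9% lower, so falls outnumbered rises only among the flanking genes, which are few. Lst1, the neighbour of Ltb and a gene of leukocytes, changed by −0.63 ± 0.18 (adjusted p = 0.0124, limma), a call lost without untreated replicate 3 (adjusted p = 0.0556). On the other side, Nfkbil1, next to Lta, changed by −0.82 ± 0.16 (adjusted p = 0.00134, limma). The RNA helicase gene Ddx39b was the flanking gene that rose (0.60 ± 0.11), and Atp6v1g2 and H2-D1 were the other two that fell, H2-D1 with near-identical copies elsewhere in the genome. Tnfrsf4 also sits beside a relative: Tnfrsf18, which encodes the costimulatory receptor GITR, fell by 1.31 ± 0.22 on the log2 scale (adjusted p = 0.000627, limma), while Tnfrsf4 rose.

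**Figure D3:**
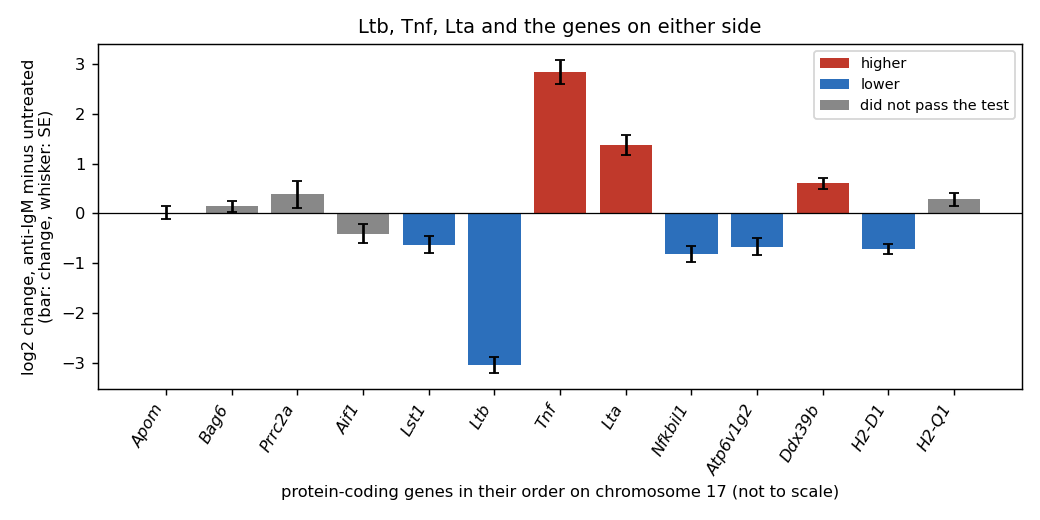
Log2 change (anti-IgM minus untreated) of Ltb, Tnf and Lta and of the 5 protein-coding genes on either side, in chromosomal order and not to scale. Bars are coloured by the test and whiskers show the SE. Tnf at 2.84 and Lta at 1.38 stand beside Ltb at −3.05, and the flanking genes lie between −0.82 and 0.60.

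RefSeq promoter windows were found for 8 of 10 members, 9 windows in all because Tnfrsf9 has 2. At least 1 NF-kB-type match stood in 6 of 9 windows, where 45.8% of 32851 windows of the same length over all genes hold one. The fixed letters of this motif are all G or C. These bases made up 55.6% to 63.2% of the matching windows of Tnf, Lta, Ltb, Tnfrsf1a and Tnfrsf1b and 49.6% of that of Tnfrsf9. The median over all windows was 52.4%, and the part of base composition was not tested. The NFAT-type core was found in 7 of 9 windows, against 55.6% of all windows. Tnf had 3 such cores, the nearest 54 to 50 bases before the start, and 1 NF-kB-type match 194 to 185 bases before it. Ltb, which fell, held NF-kB-type matches as well, at 87 to 78 and at 40 to 29 bases before its start. The second window of Tnfrsf9 held the only match of an AP-1-type motif (TGANTCA), which 6.75% of all windows hold, and no window held an EGR-type motif (GCGTGGGCG or GCGGGGGCG), which 3.06% hold. The Tnfrsf4 window held no NF-kB-type match and the Tnfrsf1b window no NFAT-type core. Such matches describe the letters of these windows and show no binding.

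**Figure D4:**
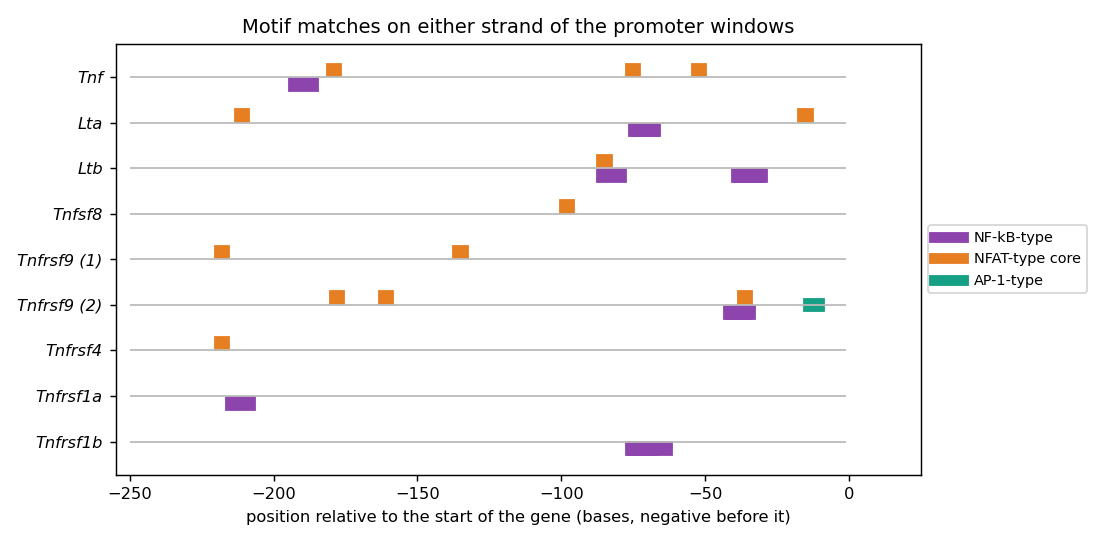
Positions of motif matches on either strand in the 250 bases before the start of each gene (x axis, bases relative to the start), drawn to scale. Each line is a window, with 2 for Tnfrsf9, and blocks are coloured by motif. NFAT-type cores appear in 7 of the 9 windows and NF-kB-type matches in 6, in the gene that fell (Ltb) as in genes that rose.

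The rest of the TNF family and its signalling moved in both directions. Of 78 such genes tested 57.7% were called, 15 as higher and 30 as lower, with a median log2 change of −0.14. Over all genes tested 47.1% were called, 23.2% as higher and 23.9% as lower. Of 5 other TNF superfamily ligand genes tested, 2 rose, none fell and 3 did not pass (40% called). Their median log2 change was 0.19, against 0.02 for all genes tested. Tnfsf14, which encodes LIGHT, another ligand of the lymphotoxin beta receptor, rose by 1.47 ± 0.14 (adjusted p = 1.06e-05, limma). Fasl, the gene of the death ligand of Fas, rose by 1.00 ± 0.15 (adjusted p = 0.000244, limma). The other 6 ligand genes on the array, among them Cd40lg and Tnfsf13b, were too dim to test. Of 15 other TNF receptor superfamily genes tested 4 rose and 6 fell (66.7% called, median 0.01). Tnfrsf12a, the receptor of the ligand TWEAK, rose by 2.77 ± 0.13 (adjusted p = 1.01e-07, limma). Tnfrsf13b, which encodes TACI, a receptor for BAFF and APRIL, changed by −1.96 ± 0.10 (adjusted p = 1.04e-07, limma). Ltbr, the gene of the lymphotoxin beta receptor, was under the array median in all samples, and 7 more receptor genes were not tested.

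TRAF adaptors carry the signal of these receptors into the cell. Of 13 TRAF genes and regulators tested, 3 rose and 5 fell (61.5% called, against 47.1% of all genes tested, median −0.05). Traf4 rose by 1.85 ± 0.11 and Traf3ip2, an adaptor also known as Act1, changed by −1.45 ± 0.15, or by −0.61 ± 0.11 with all its probes averaged. Traf1, an adaptor that binds TNF receptor 2, and Tank were the other two that rose (1.28 ± 0.12 and 0.87 ± 0.12). In the list of the TNF receptor 1 complex and its death branch, 13 of 23 genes tested fell and 3 rose (Map3k7, Tnfaip3 and Tnip2), with a median of −0.51. The share called was 69.6%, against 47.1% of all genes tested, of which 23.9% fell. Map3k7, the kinase TAK1, rose by 1.07 ± 0.16, or by 0.60 ± 0.11 with all its probes averaged. Tnfaip8l2, which changed most (−2.84 ± 0.12), encodes an inhibitor of immune receptor signals and is no subunit of that complex. Members of the complex that fell include the adaptor genes Tradd (−0.63 ± 0.19) and Fadd (−0.93 ± 0.12) and the protease gene Casp8 (−1.46 ± 0.13). The call of Tradd was lost without untreated replicate 2, untreated replicate 3 or anti-IgM replicate 1 (adjusted p = 0.0762, 0.094 and 0.0541), and that of Tnip2 without untreated replicate 2 (adjusted p = 0.0657). These names, and Tnfaip3, which encodes the inhibitor A20 (1.07 ± 0.12), were singled out after their values were seen.

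Of 9 genes tested for the shedding of TNF family proteins from the membrane, 1 rose and 4 fell (median −0.07). The share called was 55.6%, against 47.1% of all genes tested. Furin, a protease that matures precursor proteins, rose by 0.54 ± 0.13, and missed the threshold when all probes of a gene were averaged (adjusted p = 0.0563). Sppl2a, an intramembrane protease that cleaves TNF, changed by −1.19 ± 0.16, or by −0.57 ± 0.13 with all its probes averaged. Adam17, the sheddase of TNF, was also among those that fell (−0.78 ± 0.12). Of 13 regulators of Tnf mRNA stability and translation 2 rose, 2 fell and 9 did not pass (30.8% called, median −0.03). Khsrp, which promotes decay of such mRNAs, rose by 0.60 ± 0.16, and the stabilising factor gene Elavl1 by 0.50 ± 0.13. Mapk14, the kinase p38 alpha, changed by −2.27 ± 0.14, and Zfp36, which encodes the decay factor tristetraprolin, by −0.79 ± 0.18.

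**Figure D5:**
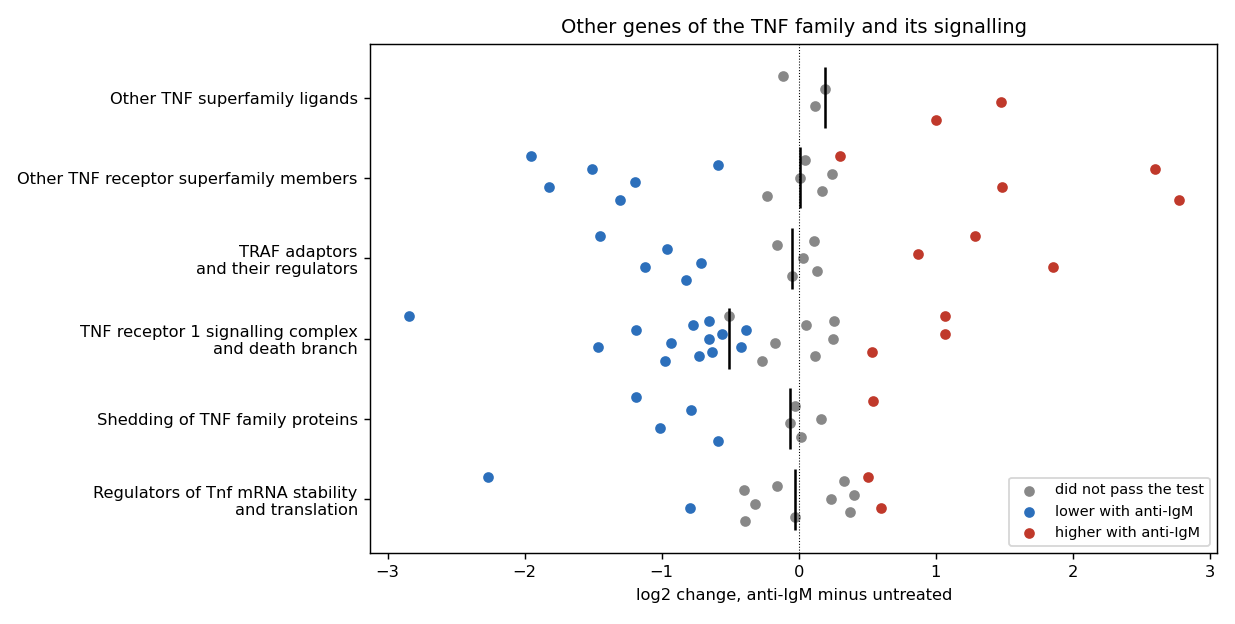
Log2 change (anti-IgM minus untreated) of the other genes tested in 6 lists of TNF family ligands, receptors and signalling genes. Each point is a gene, coloured by the test, vertical spread within a list is for legibility alone, and black lines are medians. In the TNF receptor 1 list 13 of 23 genes fell, where 23.9% of all genes tested fell. The receptor list holds changes from −1.96 to 2.77.

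Over the 6 arrays, the genes closest to Tnf in centred log2 intensity were Serpinf1, Trib3 and Wnt10b, at Euclidean distances of 0.55, 0.57 and 0.58, with log2 changes of 2.93, 3.13 and 2.90. Those closest to Ltb were Rnf144a, Ctdsp2 and Cd2, at 0.30, 0.34 and 0.36, with changes of −2.94, −3.04 and −2.86. With 2 groups of 3 samples, such likeness reflects mainly a similar difference between groups, measured on the same arrays.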

How the data were processed

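The authors deposited normalized intensities, 1 value per probe and array on a linear scale, for 45281 probes. The method and software of normalization were not given in the sources used here; the array quantiles are nearly equal. A deposited table of signals before normalization was left out, since none of its 6 columns can be tied to a sample by the labels. Intensities were taken as log2 without further normalization. Genes were named from the platform annotation (34885 probes with 1 symbol, 18 with several, 10378 not listed), and 78 of the former had no match in the RefSeq gene table of GRCm38.p6, which was used for names and gene order.

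For a gene with several probes, the brightest on average was used. Groups, taken from the sample titles, were tested using limma 3.58.1 under R 4.3.3 (intensity trend, group alone, two-sided, Benjamini-Hochberg over the genes tested). The script was tested on simulated data. No 2 arrays held identical values (0 pairs). Deviations from group means correlated at 0.57, 0.24 and 0.29 for the pairs numbered 1, 2 and 3. The main fit left the numbers in the titles out, and a replicate block was fitted as an alternative. Untreated 2 with anti-IgM 3 gave 0.35 and untreated 3 with anti-IgM 2 gave 0.12, so only number 1 is set apart by these correlations. Plots used Python 3.11.15 and matplotlib 3.10.9.

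The members, lists and alternatives were chosen with earlier results of these data known. All members were named. From every other list, the called genes with the highest and the lowest change were named, or the 2 with the largest size where all went the same way. Some listed genes and markers were not analysed here. Red cell markers tested (3) had 0 calls and plasma cell markers (3) had 1, Sdc1, which was lower.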

Additional observations from a re-analysis of the deposited data

How the results depend on the processing

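Under 14 alternatives, Tnf, Lta, Ltb, Tnfrsf4 and Tnfrsf1b kept their direction and an adjusted p under 0.05 in limma, and Tnfsf9 and Tnfsf8 did not pass under any. Log2 changes ranged from 2.42 to 3.01 for Tnf, 1.20 to 1.54 for Lta, −3.26 to −2.91 for Ltb, 1.78 to 2.05 for Tnfrsf4 and 1.46 to 1.91 for Tnfrsf1b. Tnfrsf9 ranged from 0.32 to 0.67, was not tested when all 6 arrays had to exceed the median, and was not called without untreated replicate 3 or anti-IgM replicate 1, so members called numbered 5 or 6. Leaving out 1 sample at a time gave 4899 to 5416 genes called, against 5579 with all samples. With the replicate block 6398 genes were called (54.0%), 6 members and 54 other TNF family genes, against 45 without it, and the block changed no call of a member. Without both replicate 1 arrays 5875 of 12075 genes and 6 members were called, and 34 other genes named in the text kept their direction and side of the threshold, with no change moving by more than 0.17. When every gene was tested without a filter, Tnfsf4 (−0.12 ± 0.11) and Tnfrsf1a (0.00 ± 0.11) did not pass. Quantile normalization, no intensity trend and subtraction of the lowest intensity each left 6 members called. Signal over background limits the dim members Tnfsf9, Tnfsf8, Tnfrsf9, Tnfsf4 and Tnfrsf1a.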

Other observations

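Some other receptor genes of the family, singled out after their values were seen, differed between the groups. Cd40, the receptor of T cell help, had a mean log2 intensity of 11.03 untreated and 9.52 with anti-IgM (change −1.51 ± 0.12, adjusted p = 3.10e-06, limma; −0.67 with all its probes averaged). Fas, the death receptor bound by the product of Fasl, changed by −1.20 ± 0.16, or by −0.63 ± 0.11 with all its probes averaged. Cd27, a costimulatory receptor of lymphocytes, rose by 1.48 ± 0.14, or by 0.90 ± 0.11 with all its probes averaged. Tnfrsf21, which encodes death receptor 6, rose by 2.60 ± 0.14. Tnfrsf26 changed by −1.82 ± 0.17. The BAFF receptor gene Tnfrsf13c rose by 0.30 ± 0.10 (adjusted p = 0.0304, limma), a call lost with no intensity trend and without untreated replicate 3, anti-IgM replicate 1 or anti-IgM replicate 3 (adjusted p = 0.0646 to 0.124 without each). Within Tnfrsf1a, 1 of 3 probes had groups that did not overlap (difference −0.20), all of it under the array median.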
